A study of Mus musculus with 6 samples.

Results

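Glycolytic enzymes were examined in epididymal fat, a visceral white adipose depot of male mice, after a 24 h fast and in the fed state. The set held 5 genes, Pfkl, Tpi1, Pgam1, Eno3 and Ldha, of the 3162 genes in each deposited table. The 5 genes were chosen from the difference between the fasted and fed values themselves, with Eno3 taken because it moved against the other four. Their values are therefore given as a description, with no test. All 6 mice were male wild-type C57BL/6J animals aged 16 weeks. The 3 fasted mice had no food for 24 h before RNA extraction, and the 3 fed mice ate normally. The quantity is FPKM, the fragments assigned to a gene per kilobase of transcript and relative to all mapped fragments, which allows levels of different genes to be compared within a library. All 5 genes had a mean of at least 1 FPKM and were among the 2999 genes tested.

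Glycolysis splits glucose into pyruvate in the cytosol and yields ATP, NADH and the triose phosphates from which adipocytes make the glycerol backbone of triglyceride. In fat tissue of a fed animal insulin brings glucose into adipocytes, and pyruvate then feeds fatty acid synthesis or leaves the cell as lactate. Pfkl encodes the liver-type subunit of phosphofructokinase, which catalyses the committed step. Tpi1 encodes triosephosphate isomerase, which interconverts the 2 triose phosphates. Pgam1 encodes phosphoglycerate mutase, Eno3 the beta subunit of enolase, an isoform best known from muscle, and Ldha the A subunit of lactate dehydrogenase, which reduces pyruvate to lactate.

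The sequence before the transcription start was read for all 5 genes, because 4 of them were lower together and 1 was higher. RefSeq starts on GRCm38.p6 gave 6 windows of 250 bases for the 5 genes, with 2 starts for Ldha. Both strands were searched for the E-box CACGTG, the letters ACGTG and GCGTG that form the core of hypoxia response elements, CGTGAC, the GC box GGGCGG and TATAA. Every CACGTG also contains ACGTG on each strand, and CGTGAC can share letters with either core form. A window is shown for Ldha, Pgam1 and Eno3, all free of annotated exons. The Ldha window held the only E-boxes among the 18 windows of the 12 glycolysis genes in the tables, Pgam1 held both hypoxia core forms, and Eno3 is the gene that was higher. Capitals mark every match to any of the searched letters.
Ldha, first RefSeq start, plus strand, chr7:46845554-46845803: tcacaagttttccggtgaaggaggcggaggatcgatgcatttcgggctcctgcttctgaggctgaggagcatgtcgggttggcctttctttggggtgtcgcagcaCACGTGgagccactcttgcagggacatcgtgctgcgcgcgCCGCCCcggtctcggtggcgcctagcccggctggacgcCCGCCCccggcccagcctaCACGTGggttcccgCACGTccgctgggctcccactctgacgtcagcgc
Pgam1, plus strand, chr19:41911621-41911870: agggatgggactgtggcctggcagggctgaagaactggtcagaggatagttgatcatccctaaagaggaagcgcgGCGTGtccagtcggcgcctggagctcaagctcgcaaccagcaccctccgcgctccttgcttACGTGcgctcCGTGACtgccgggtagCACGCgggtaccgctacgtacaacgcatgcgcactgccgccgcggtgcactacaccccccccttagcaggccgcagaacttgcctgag
Eno3, plus strand, chr11:70656926-70657175: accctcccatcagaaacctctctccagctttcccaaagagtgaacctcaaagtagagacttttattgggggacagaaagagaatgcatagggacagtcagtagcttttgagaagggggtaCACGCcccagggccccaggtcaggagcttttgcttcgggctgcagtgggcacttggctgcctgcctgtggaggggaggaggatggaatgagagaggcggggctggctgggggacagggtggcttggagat

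In the Ldha window CACGTG began 145 and 48 bases before the start. Of 32851 RefSeq windows of the same length in the genome, 6.02% held the E-box. The core form ACGTG was present in the first Ldha window and in Pgam1, against 16.6% of all windows. The letters GCGTG were present in 4 of the 6 windows, those of Pgam1, Pfkl, Eno3 and the second Ldha start, against 28.2% of all windows. CGTGAC was found in Pgam1 alone among these 6 windows, against 6.93% of all. GGGCGG was present in the Tpi1 window and the first Ldha window (32.7% of all), and TATAA in Tpi1 and Pfkl (22.8% of all). In the Tpi1 window 138 bases, and in the Pfkl window 53 bases, lie in annotated exons. No one motif was shared by the 4 genes that were lower, and the motif found before Eno3 was also found before Pgam1, Pfkl and Ldha. The 6 windows had 54.4% to 67.2% G and C, against a median of 52.4% over all windows. The shares of all windows were not matched for this, so no excess of a motif is read from them. Such matches describe letters in a window and are not binding sites.

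The tables held genes that already differed between the groups. In 2953 of the 3162 genes (93.4%) the 3 fasted and 3 fed values did not overlap, and calls are read against that share. Of the 2999 genes tested, 90.5% passed an adjusted p of 0.05 (limma, Benjamini-Hochberg), with 1232 higher (41.1%) and 1482 lower (49.4%) in fasted tissue. With median-ratio scaling these counts were 1238 and 786. Across the tested genes the log2 fold changes had a median of -0.34 as deposited, -0.15 with median-ratio scaling and -0.21 with quantile scaling. Each change is therefore also given relative to the median. Sequencing depth is unknown. Among markers, 6 of 15 adipocyte genes were held, with summed levels of 3297 to 3875 FPKM in fasted and 5977 to 7155 FPKM in fed libraries. Retn, at 2758 FPKM on average in fasted and 4156 FPKM in fed tissue, made up most of that sum. Red cell genes (5 of 7 held) summed to 3955 to 10136 FPKM in fasted and 1892 to 2800 FPKM in fed libraries. No held marker of either list was at 0 in any library.

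The transcript of Pfkl, a gene of the committed step, was lower in fasted tissue. Pfkl (ENSMUSG00000020277, minus strand, chr10:77986947-78010083, GRCm38) had 18.4, 18.7 and 23.7 FPKM in the fasted libraries, against 31.5, 37.8 and 38.6 FPKM in the fed libraries. The groups did not overlap, and fasted replicate 3 lay nearest to the fed range. Means were 20.3 ± 2.96 FPKM in fasted and 36.0 ± 3.90 FPKM in fed tissue (SD, n = 3 each), so the fasted mean was 56.4% of the fed mean. The log2 fold change was -0.80 ± 0.15 (SE), or -0.46 relative to the median of all tested genes. As this is bulk tissue, fewer cells of a type and less RNA per cell cannot be told apart, and the adipocyte markers were lower in the same libraries; their part in this and the following values was not tested.

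Tpi1 showed the deepest difference of the set. Tpi1 (ENSMUSG00000023456, minus strand, chr6:124810586-124814296) had 69.0, 67.6 and 74.6 FPKM in the fasted libraries, against 220, 285 and 170 FPKM in the fed libraries. All 3 fasted values lay close together and far below the lowest fed value, while the fed values were widely spread. Means were 70.4 ± 3.70 FPKM in fasted and 225 ± 57.7 FPKM in fed tissue (SD, n = 3 each), which left the fasted mean at 31.2% of the fed mean. The coefficient of variation was 5.26% among fasted and 25.6% among fed libraries. The log2 fold change was -1.63 ± 0.19, or -1.29 relative to the median, and it ranged from -1.82 without fed replicate 3 to -1.41 with quantile scaling. Tpi1 shares 34 exonic bases with Spsb2 on the opposite strand, and reads of the pair cannot be separated without strand information.

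Pgam1 was lower by about the same factor as Ldha. Pgam1 (ENSMUSG00000011752, plus strand, chr19:41911923-41918660) had 58.7, 77.7 and 84.6 FPKM in the fasted libraries, against 135, 156 and 149 FPKM in the fed libraries. Here the fasted libraries were the more variable, with a coefficient of variation of 18.2% among fasted and 7.22% among fed libraries. The fasted mean was 50.2% of the fed mean, 73.7 ± 13.4 FPKM in fasted and 147 ± 10.6 FPKM in fed tissue (SD, n = 3 each). The log2 fold change was -0.999 ± 0.158, or -0.66 relative to the median.

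Ldha was the most abundant of the 5 transcripts in every library. Ldha (ENSMUSG00000063229, plus strand, chr7:46841475-46855627) had 338, 345 and 373 FPKM in the fasted libraries, against 549, 873 and 722 FPKM in the fed libraries. The fasted values again lay close together, with a coefficient of variation of 5.22%, whereas it was 22.7% among fed libraries. Means were 352 ± 18.4 FPKM in fasted and 715 ± 162 FPKM in fed tissue (SD, n = 3 each). The fasted mean was 49.2% of the fed mean, a log2 fold change of -0.996 ± 0.179 (-0.65 relative to the median).

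Eno3 was the least abundant of the 5 in every fed library and the only one that was higher after fasting. Eno3 (ENSMUSG00000060600, plus strand, chr11:70657202-70662513) had 23.0, 12.8 and 11.7 FPKM in the fasted libraries, against 8.64, 7.60 and 7.19 FPKM in the fed libraries. The groups did not overlap, and fasted replicate 1 stood well above the other fasted libraries, at 1.88 times their mean. Means were 15.8 ± 6.24 FPKM in fasted and 7.81 ± 0.748 FPKM in fed tissue (SD, n = 3 each), a ratio of 2.03. The log2 fold change was 0.88 ± 0.24 (1.22 relative to the median), and 0.59 ± 0.14 without fasted replicate 1.

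**Figure D1:**
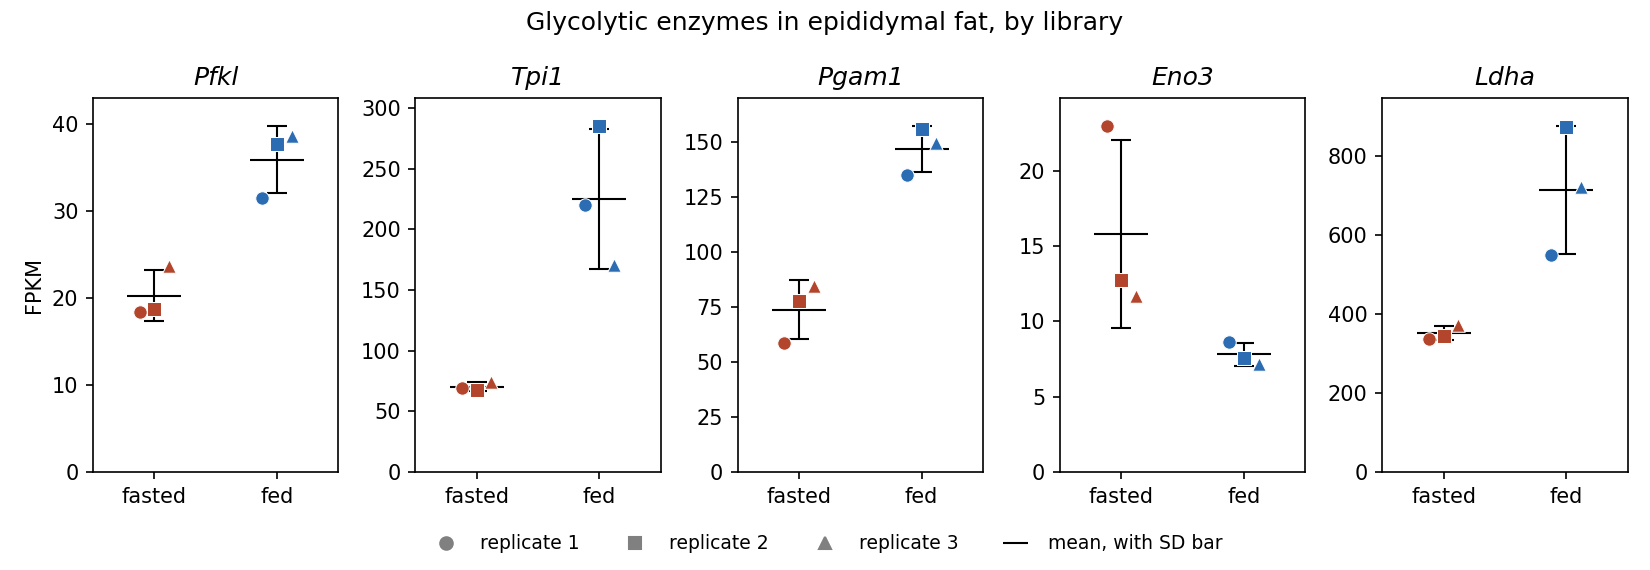
FPKM of Pfkl, Tpi1, Pgam1, Eno3 and Ldha in each library, in the order of the pathway, with fasted libraries on the left and fed libraries on the right of each panel. Points are libraries, and the black marks are the mean and SD of 3 libraries. In no panel do the groups overlap, Eno3 is the panel in which the fasted values are higher, and its fasted replicate 1 stands at 23.0 FPKM.

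The groups did not overlap for any of the 5 genes, which their choice had fixed. Over all tested genes the fasted values lay wholly below the fed values in 52.6% and wholly above them in 40.8%, together 93.4%. The order of levels differed between the groups. In each of the 3 fed libraries it was Ldha, Tpi1, Pgam1, Pfkl and then Eno3. In fasted libraries Ldha also came first, but Tpi1 and Pgam1, at 70.4 ± 3.70 and 73.7 ± 13.4 FPKM, did not differ beyond their spread, and neither did Pfkl and Eno3, at 20.3 ± 2.96 and 15.8 ± 6.24 FPKM. In fasted replicate 1 Eno3 exceeded Pfkl.

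Levels within a group were not what chose the genes. Among fasted libraries, replicate 3 had the highest value of Pfkl, Tpi1, Pgam1 and Ldha, whereas it was the highest fasted library for 25.2% of all tested genes and for none of the other 7 glycolysis genes held. Eno3 had its lowest fasted value in replicate 3 and its highest in replicate 1, which was the highest fasted library for 47.7% of all tested genes. Among fed libraries, replicate 2 was the highest for Tpi1, Pgam1 and Ldha and for 9 of the 12 glycolysis genes held, against 44.9% of all tested genes. In that library Tpi1 was 1.46 times and Ldha 1.37 times the mean of the other fed libraries, but Pgam1 only 1.10 times. Fed replicate 1 held the lowest fed value of Pfkl, Pgam1 and Ldha and the highest of Eno3. The summed adipocyte markers were also highest in fasted replicate 3, at 3875 FPKM, against 3367 and 3297 FPKM in fasted replicates 1 and 2. In fed libraries that sum was highest in replicate 1, at 7155 FPKM, unlike Pfkl, Tpi1, Pgam1 and Ldha. The part of adipocyte content in these orders was not tested. With 3 libraries in a group, no correlation was computed.

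Ratios between genes of one library do not change when the whole library is scaled up or down. Eno3 was compared in this way with its sister isozyme gene Eno1, which encodes the widespread alpha subunit of enolase; as the 5 genes were chosen for their direction, such ratios are descriptions. Eno3 made up 9.78%, 7.24% and 6.50% of the summed Eno1 and Eno3 FPKM in the fasted libraries, against 2.80%, 1.61% and 2.03% in the fed libraries. Eno1 remained the main enolase transcript of the pair in all 6 libraries. The 2 coding sequences are 77.4% identical over 1290 aligned bases. Because Eno1 was so much more abundant, the summed level of the pair was 197 ± 32.9 FPKM in fasted and 379 ± 84.5 FPKM in fed tissue (SD, n = 3 each).

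Transcripts of neighbouring steps moved unequally. The ratio of Tpi1 to Aldoa, the aldolase gene one step upstream, was 0.0759, 0.0647 and 0.0831 in the fasted libraries, against 0.183, 0.226 and 0.173 in the fed libraries. Tpi1 to Gapdh, one step downstream, was 0.0688 ± 0.0156 in fasted and 0.166 ± 0.0204 in fed tissue (SD, n = 3 each). Thus Tpi1 was lower relative to the genes on both sides of it in the pathway, with no overlap of the groups in either ratio. Pgam1 to Pgk1, the phosphoglycerate kinase gene upstream of it, was 1.18, 1.35 and 1.68 in the fasted libraries, against 2.01, 2.03 and 2.05 in the fed libraries. This ratio was very even among fed libraries and again did not overlap between the groups. Ldha to the pyruvate kinase gene Pkm was 2.74, 2.78 and 3.07 in the fasted libraries, against 3.17, 4.01 and 4.60 in the fed libraries, a separation that rested on a narrow gap. Pfkl to Pfkp, the platelet-type phosphofructokinase gene, overlapped between the groups, at 0.997 ± 0.228 in fasted and 1.29 ± 0.314 in fed tissue (SD, n = 3 each).

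Among the 5 genes themselves, Tpi1 to Ldha was almost constant in fasted libraries, at 0.204, 0.196 and 0.200, against 0.400, 0.327 and 0.236 in the fed libraries. Tpi1 to Pgam1 overlapped between the groups, at 1.18, 0.870 and 0.882 in the fasted libraries, against 1.63, 1.83 and 1.14 in the fed libraries. Ldha to Pgam1 overlapped, with means of 4.87 ± 0.771 in fasted and 4.83 ± 0.769 in fed tissue (SD, n = 3 each), as did Pgam1 to Pfkl, at 3.63 ± 0.486 in fasted and 4.09 ± 0.213 in fed tissue. Overlap with 3 libraries a group does not show that these ratios are equal.

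**Figure D2:**
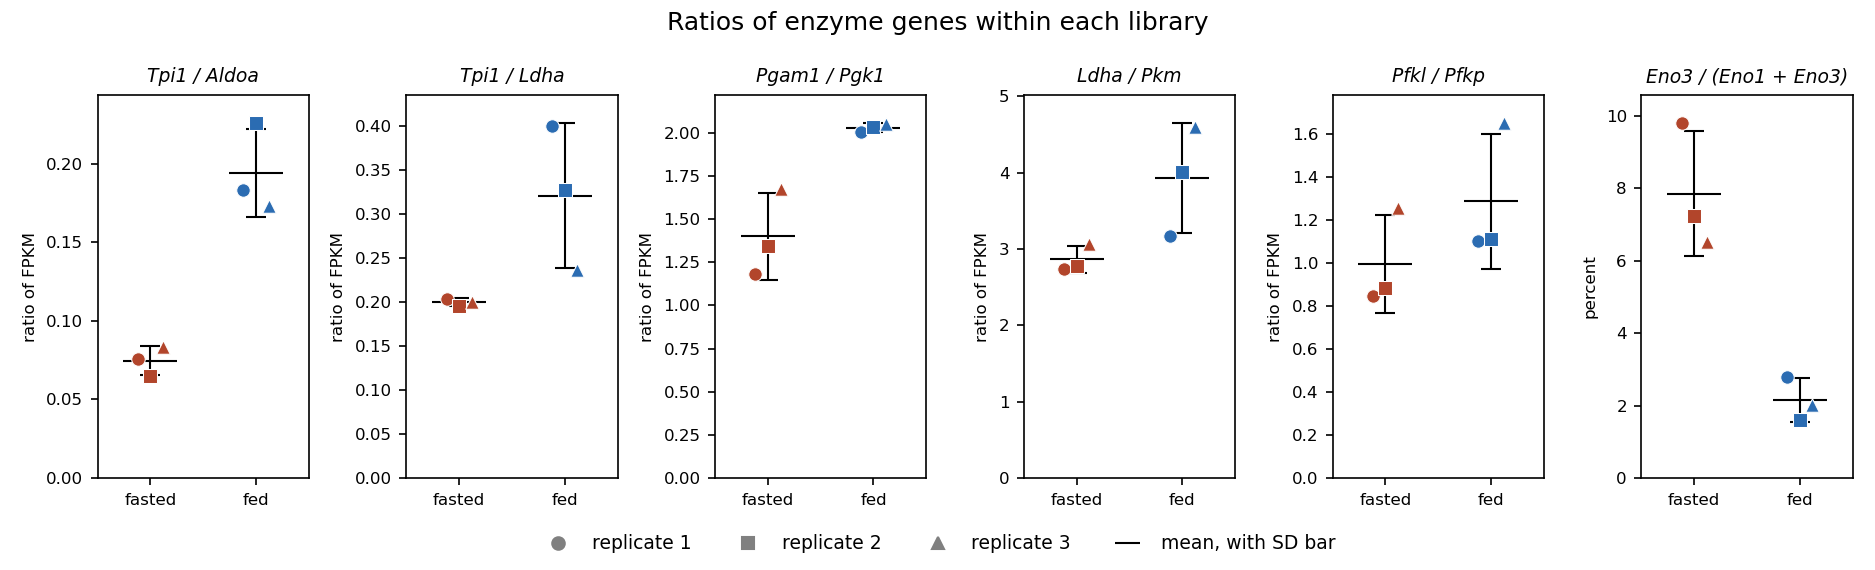
Ratios of FPKM between enzyme genes of the same library, and in the last panel Eno3 as a percent of Eno1 plus Eno3, with fasted libraries left of fed libraries. Points are libraries and black marks the mean and SD of 3 libraries. The groups overlap for Pfkl over Pfkp only, and Eno3 reaches 9.78% in fasted replicate 1 against at most 2.80% in fed libraries.

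The rest of the pathway was described with a list of 31 glycolysis genes, isozymes included, of which 12 were held. The 5 chosen genes are among these 12, and nothing is read from a count that includes them. Here and below, rose and fell mark genes with a limma adjusted p under 0.05. Among the 7 others, 5 fell and 2 did not pass, where 49.4% of all tested genes fell, and their median log2 fold change was -0.44 against -0.34 over all genes tested. Eno1 had the largest change of these, at 181 ± 26.8 FPKM in fasted and 371 ± 84.9 FPKM in fed tissue (log2 fold change -1.01 ± 0.19; limma adjusted p = 0.00389). Pkm fell by less, at -0.55 ± 0.14 (limma adjusted p = 0.0100).

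Pgk1 (-0.45 ± 0.12), Pfkp (-0.44 ± 0.16) and Hk2 (-0.43 ± 0.17), which encodes the insulin-responsive hexokinase, fell in the values as deposited, with limma adjusted p of 0.0106, 0.0283 and 0.0455. These 3 calls were lost with median-ratio scaling, where 2 of the 7 fell (adjusted p up to 0.276 for Hk2). Over all tested genes, 786 were lower with that scaling, against 1482 in the values as deposited. The call of Hk2 was also lost without any one library other than fed replicate 3, and that of Pfkp without fasted replicate 2 or 3 or fed replicate 1 or 2; without any one of these 4 libraries 3 of the 7 fell. The abundant genes Aldoa and Gapdh did not pass: Aldoa was 951 ± 82.3 FPKM in fasted and 1149 ± 147 FPKM in fed tissue, and Gapdh 1052 ± 190 FPKM in fasted and 1342 ± 197 FPKM in fed tissue (SD, n = 3 each). Relative to the median of all genes the change of Aldoa was 0.07, but -0.02 with quantile scaling, and that of Gapdh was -0.015. Summed over the 12 genes, the level was 2856, 3200 and 2713 FPKM in the fasted libraries, against 4002, 4997 and 3875 FPKM in the fed libraries. Tpi1 accounted for 2.43 ± 0.318% of that sum in fasted and 5.20 ± 0.703% in fed tissue (SD, n = 3 each).

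**Figure D3:**
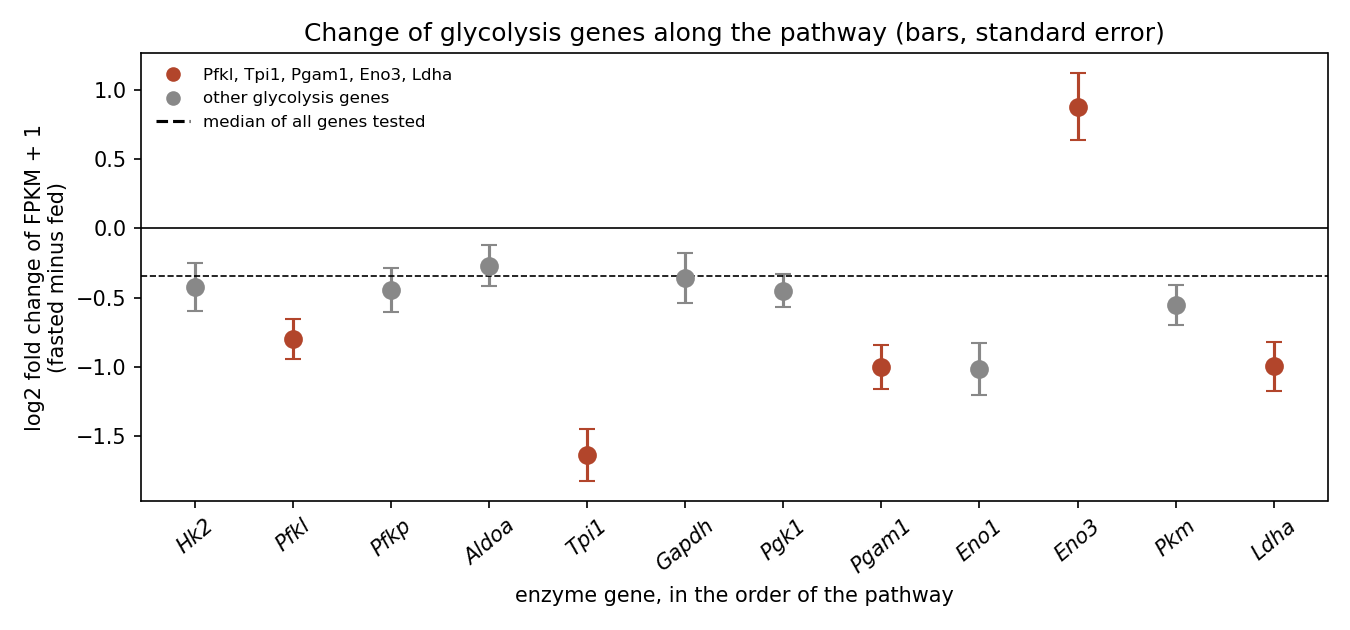
Log2 fold change of FPKM + 1, fasted minus fed, for the 12 glycolysis genes held, in the order of the pathway from left to right. Points are the fitted change, bars its standard error, and the dashed line the median of all 2999 genes tested (-0.34). Tpi1 lies lowest at -1.63, Aldoa and Gapdh lie next to the dashed line, and Eno3 is the only gene above 0.

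At the entry of the pathway, 4 of 5 held genes fell and 1 rose, where 49.4% of all tested genes fell and 41.1% rose. Slc2a4, encoding the insulin-regulated transporter GLUT4, had 39.2, 46.7 and 53.3 FPKM in the fasted libraries, against 85.9, 96.8 and 89.7 FPKM in the fed libraries (-0.96 ± 0.14). Pfkfb1 (-0.71 ± 0.15) and Pfkfb4 (-1.13 ± 0.23), whose products set the level of the phosphofructokinase activator fructose 2,6-bisphosphate, fell as well. Slc2a1, encoding the basal transporter GLUT1, rose by 0.99 ± 0.31, but its groups overlapped and the call was lost without fasted replicate 1 or 2 or fed replicate 2 or 3 (limma adjusted p up to 0.0614).

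Downstream, at pyruvate and lactate, 11 of 15 held genes fell, 2 rose and 2 did not pass, against 6 falls with median-ratio scaling. Of all tested genes, 49.4% fell and 41.1% rose in the values as deposited. With median-ratio scaling 786 of all tested genes were lower, against 1482 as deposited. The rises were those of Pdk2, at 298 ± 36.2 FPKM in fasted and 83.3 ± 32.8 FPKM in fed tissue (1.91 ± 0.29), and Pdk4 (named after its values were seen), and both encode kinases that switch off pyruvate dehydrogenase. Pdhx (-0.61 ± 0.14), a structural subunit of that complex, fell, and so did the kinase gene Pdk3 (-0.76 ± 0.13). Gpt, the alanine aminotransferase that links pyruvate and alanine, had the largest fall, at 11.8 ± 2.05 FPKM in fasted and 110 ± 38.0 FPKM in fed tissue (-3.07 ± 0.24). Slc16a1, encoding the lactate carrier MCT1 and also named after its values were seen, fell by 0.85 on the log2 scale.

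Side branches that draw on glycolytic intermediates were described in the same way, beside the 49.4% of all tested genes that fell and the 41.1% that rose. These shares hold for the values as deposited, where 1482 genes were lower. With median-ratio scaling 786 were lower, and with quantile scaling 1169. All 5 held genes of the pentose phosphate pathway fell, namely Pgd (-1.31 ± 0.20), G6pdx (-1.09 ± 0.24), H6pd (-0.89 ± 0.25, named after its values were seen), Rpe (-0.83 ± 0.16) and Taldo1 (-0.47 ± 0.12), and 3 of them fell with median-ratio or quantile scaling. In the glycerol 3-phosphate branch and NADH shuttles 4 of 5 fell and 1, Slc25a12 (0.67 ± 0.19, named after its values were seen), rose, against 2 falls with quantile scaling. Gpd2 (-0.84 ± 0.17), Mdh1 (-0.60 ± 0.13) and Slc25a11 (-0.43 ± 0.11) were among the falls; the call of Slc25a11 was lost with either scaling and that of Mdh1 with quantile scaling. Gpd1, which turns the substrate of Tpi1 into glycerol 3-phosphate, was at 103 ± 43.7 FPKM in fasted and 383 ± 171 FPKM in fed tissue (-1.87 ± 0.36). Its ratio to Tpi1 overlapped between the groups, at 1.45 ± 0.536 in fasted and 1.65 ± 0.321 in fed tissue (SD, n = 3 each). Of 8 tested glycogen genes 6 fell and 2 did not pass, with the phosphorylase gene Pygb at -1.91 ± 0.18, the phosphorylase kinase genes Phkb at -0.51 ± 0.15 and Phkg1 at -1.03 ± 0.31, and Ppp1r3e at -0.57 ± 0.19. That count was 2 with median-ratio scaling, 1 without fasted replicate 2, 3 without fasted replicate 1 or fed replicate 2, and 4 without fed replicate 3. For gluconeogenesis, Pck2, encoding mitochondrial PEP carboxykinase, was the only gene tested and rose (1.24 ± 0.15).

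Among 8 held regulators of glycolytic genes, 5 rose and 3 fell, where 41.1% of all tested genes rose and 49.4% fell. Mlxipl, encoding the carbohydrate-sensing factor ChREBP, was at 43.5 ± 1.45 FPKM in fasted and 79.5 ± 6.03 FPKM in fed tissue (-0.85 ± 0.11). Srebf1 (-1.54 ± 0.20), encoding the lipogenic factor SREBP1, also fell. Mxi1, encoding an antagonist of MYC, rose by 1.09 ± 0.12, and Arnt (0.76 ± 0.12), encoding the partner of the hypoxia-inducible factors, rose too. Of 10 held targets of hypoxia-inducible factors outside glycolysis, 6 rose, 3 fell and 1 did not pass, to be read against the same shares. Ddit4 (2.38 ± 0.17), Bnip3l (1.05 ± 0.13) and Bnip3 (0.89 ± 0.17) were among the rises, and P4ha1 (-0.92 ± 0.19) among the falls. Their median log2 fold change was 0.82, against -0.34 over all tested genes.

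**Figure D4:**
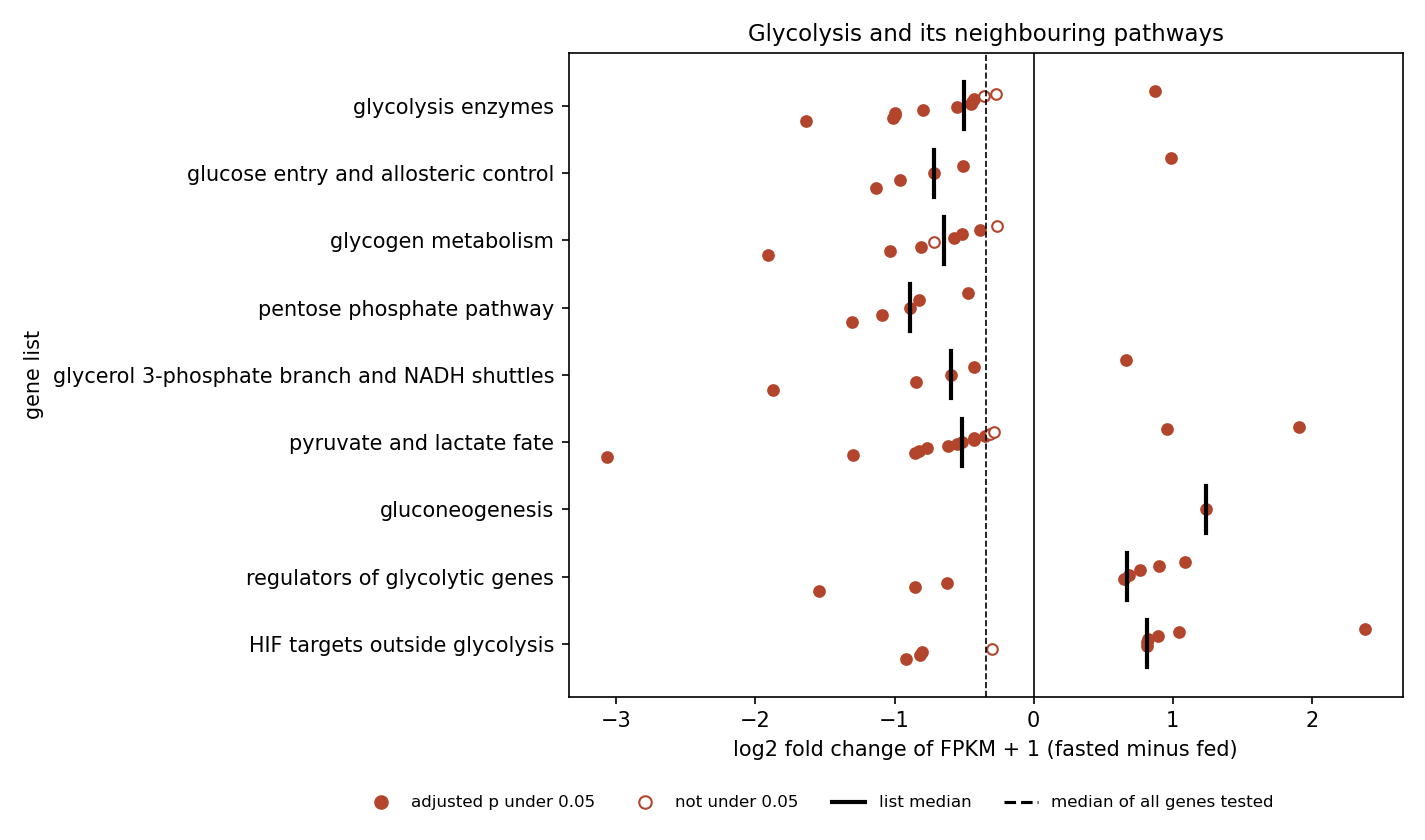
Log2 fold change of FPKM + 1, fasted minus fed, for each tested gene of glycolysis and 8 neighbouring lists. Each circle is a gene, filled where the limma adjusted p was under 0.05, the black bar is the median of the list and the dashed line the median of all genes tested (-0.34). Pfkl, Tpi1, Pgam1, Eno3 and Ldha were chosen on this same difference, so the fill of their circles is not a test. The pentose phosphate genes all lie below 0, and the targets of hypoxia-inducible factors have a median of 0.82.

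Markers of other cell types differed between the groups in both directions, as did all tested genes, of which 41.1% rose and 49.4% fell. Smooth muscle and pericyte genes (6 of 9 held, 0 of them at 0 in any library) summed to 236, 208 and 135 FPKM in the fasted libraries, against 161, 115 and 134 FPKM in the fed libraries, so that the groups overlapped. Fasted replicate 1 and fed replicate 1 were the highest of their groups for this sum as for Eno3. Over all tested genes, fasted replicate 1 was the highest of its group for 47.7% and fed replicate 1 for 33.9%. Within the list 4 rose, among them Myh11, at 33.6, 25.9 and 15.2 FPKM in the fasted libraries against 17.5, 5.41 and 6.44 FPKM in the fed libraries (the groups overlapped), and 2 fell. Endothelial genes (4 of 9 held) summed to 283 to 414 FPKM in fasted and 176 to 217 FPKM in fed libraries, again with fasted replicate 1 highest. In the fed libraries replicate 2 was the highest for this sum, unlike for Eno3. Of 5 fibroblast and preadipocyte genes held of 10, 2 rose and 3 fell. Their sum, 1298 to 1924 FPKM in fasted and 880 to 1169 FPKM in fed libraries, was carried by Dcn, at 1061 FPKM on average in fasted and 505 FPKM in fed tissue, while the collagen genes Col1a1, Col1a2 and Col3a1 fell. The single macrophage marker held of 9 was at 2.12 to 3.86 FPKM in fasted and 4.55 to 8.38 FPKM in fed libraries, and the single neutrophil marker held of 6 at 0.17 to 0.95 FPKM in fasted and 3.97 to 6.98 FPKM in fed libraries. Of 10 markers of epididymal epithelium 0 were held, so that cell type could not be assessed. Of 22 skeletal muscle genes only Myl1 was held, and it was lower, at 11.4 to 24.4 FPKM in fasted and 54.1 to 68.3 FPKM in fed libraries. Of 8 brown and beige adipocyte genes 3 were held, namely Eno3 itself, Ppargc1a and Dio2. Ppargc1a rose (0.90 ± 0.24). Dio2 was near the floor and not among the tested genes, at 0.07, 0.05 and 0.05 FPKM in the fasted libraries and 0.14, 1.25 and 0.03 FPKM in the fed libraries. Its groups overlapped, so no direction is read from it. The part of any of these cell types in the Eno3 values was not tested.

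The genes most like each of the 5 were found by the root mean square distance between log2(FPKM + 1) profiles over the 6 libraries, each centred on its own mean. For Eno3 they were Sigirr (distance 0.03), Pear1 (0.07) and Tgif1 (0.07). Sigirr had 12.0, 6.78 and 5.92 FPKM in the fasted libraries, against 4.42, 3.86 and 3.69 FPKM in the fed libraries. Its high value in fasted replicate 1 follows from its being picked by likeness over these same libraries. That library was also the highest fasted library for 47.7% of all tested genes. For Pgam1 they were the GLUT4 gene Slc2a4 (0.05), the cathepsin gene Ctsb (0.07) and the myosin gene Myo1c (0.08). The profile of Tpi1 was nearest to those of Epb41l2 (0.10), Prkag3 (0.10) and Rbm28 (0.12), which were not as close as the neighbours of the other genes. Prkag3 was near the floor, at 0.39, 0.23 and 0.26 FPKM in fasted and 3.46, 4.85 and 2.27 FPKM in fed libraries. Its likeness to Tpi1 therefore depends on the 1 added before the logarithm, which shrinks changes of low genes. Ldha was nearest to Entpd6 (0.06), Ndufb3 (0.08) and Lrrc27 (0.08), and Pfkl to Mlec (0.05), Ankrd40 (0.06) and Mrpl49 (0.06). None of these 15 genes is on the glycolysis list.

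Copies of these genes elsewhere in the genome limit some values. At 90% identity or more over at least 50% of the coding sequence, Ldha had 8 annotated pseudogenes (up to 95.9% identical), Pgam1 had 3 (up to 100%) and Tpi1 had 1 (94.2%). Pfkl and Eno3 had 0. Among the genes used as denominators of the ratios, Gapdh had 149 such copies, 143 of them pseudogenes, Eno1 had 6, Aldoa and Pkm 4 each, and Pgk1 had 2. Annotated exons of Pfkp share 748 bases with Pitrm1 on the opposite strand, and those of Pkm share 767 bases with Gm49759 on the same strand. Gapdh shares 68 exonic bases with Iffo1 and Aldoa 25 with Fam57b, both on opposite strands. How reads were shared between a gene and its copies was not stated in the labels or file headers, so the levels of all these genes, and the ratios between them, are uncertain for that reason.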

How the data were processed

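RNA from epididymal fat of 3 fasted and 3 fed mice was sequenced, and libraries were grouped by the treatment label. Replicate numbers follow accession order. Per the file headers, the deposited values are FPKM. RSEM is named in the submitters' processing notes, as are the builds mm10 and GRCm38.p6. Its version, the aligner and any rule behind the choice of the 3162 genes: not given in the sources used here. Depth is unknown, so no counting interval is given.

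Identifiers were matched to GENCODE M21 on GRCm38, and 3158 of 3162 matched. The 2999 genes whose mean over the 6 libraries reached 1 FPKM were compared on log2(FPKM + 1), which understates changes of low genes, with limma 3.58.1 in R 4.3.3 (lmFit, eBayes with trend). Two-sided p-values were adjusted by Benjamini-Hochberg over these genes. Because the groups do not overlap in 93.4% of the genes held, adjusted p-values are not a genome-wide false discovery rate. Copies were searched with blastn 2.17.0. Promoter windows are from RefSeq.

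The 5 genes and all lists were chosen with earlier results of these data known. Named genes are the 5, every glycolysis gene held, the 4 genes of each other pathway list with the smallest p, and the 3 nearest profiles of each of the 5; exceptions are stated. Alternatives were a pseudocount of 0.1, no filter, median-ratio and quantile scaling, no trend, and leaving out each library.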

Additional observations from a re-analysis of the deposited data

How the results depend on the processing

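All 5 genes kept their direction under each of the 11 alternatives run. As the groups did not overlap for any of the 5, this was fixed in advance except with median-ratio and quantile scaling. With median-ratio scaling 786 genes were lower, the median log2 fold change over all genes was -0.15 and that of Pfkl -0.60; with quantile scaling the median was -0.21 and that of Pgam1 -0.75; the cause was not tested. Relative to the median, Pfkl was at -0.45 with median-ratio and Pgam1 at -0.54 with quantile scaling. Over the libraries left out, the log2 fold change ranged from -1.82 to -1.45 for Tpi1, -1.11 to -0.85 for Pgam1, -1.17 to -0.84 for Ldha, -0.91 to -0.74 for Pfkl and 0.59 to 1.05 for Eno3. Of the 7 other glycolysis genes held, 3 to 5 fell over these, 2 with median-ratio and 3 with quantile scaling. Over all tested genes, 1040 to 1300 were lower over the libraries left out and 1169 with quantile scaling. These 7 genes too come from tables in which the groups did not overlap for 93.4% of the genes. Of 77 values of the other 7 glycolysis genes, 63 kept their side of the threshold and 14 lost the call, with 0 changes of sign. No paired analysis was possible because the labels give no replicate numbers shared by the groups. Unknown depth leaves the precision of single values unknown.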
